A study of Homo sapiens with 9 samples.

Results

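The transcripts of 9 CXC and CC chemokine genes, CXCL1, CXCL2, CXCL3, CXCL5, CXCL8, CXCL16, CCL2, CCL5 and CCL20, were followed in MDA-MB-231 cells by RNA sequencing. The genes were taken by name, and 8 of them were found among the 24344 genes of the count table, while CCL5 was not analysed here. MDA-MB-231 is an established human breast adenocarcinoma cell line that lacks estrogen and progesterone receptors. All cultures were treated for 48 h. Compound Kushen Injection (CKI), which is made from the herbs Kushen and Baituling, was given at 2.0 mg/mL of total alkaloids, and injections of Kushen alone or of Baituling alone were given at the matching dilution. Each treatment had 3 libraries, so the comparisons are between the injections. Untreated libraries were not analysed here, and a higher level with one injection cannot be told apart from a lower level with the other. Nothing in the labels says that the 3 libraries of a treatment came from separate cultures, so p-values measure the spread between these libraries.

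Chemokines are small secreted proteins that direct the migration of cells through G protein-coupled receptors. CXCL1, CXCL2, CXCL3, CXCL5 and CXCL8 (interleukin-8) carry a Glu-Leu-Arg motif before their first cysteines, bind the receptor CXCR2 and attract neutrophils, and CXCL8 also binds CXCR1. CXCL16 is made as a membrane protein, binds CXCR6 and is released by the protease ADAM10. CCL2 attracts monocytes through CCR2, CCL20 attracts cells carrying CCR6, and CCL5 attracts T cells and monocytes. Cytokines such as IL-1 and TNF induce many of these genes through the transcription factor NF-kB, and AU-rich elements in the mRNAs shorten their life. Breast cancer cells of the MDA-MB-231 kind are known for making CXCL8 without added cytokine.

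The total count per library was 20144628 to 23782071. Levels are in CPM, where each count is divided by its library's TMM-adjusted total so that libraries of unequal depth can be compared, and 3 counts in a library amounted to 0.118 to 0.166 CPM. All 8 markers fixed for the cell line were tested, and their summed level was 3210 to 3380 CPM with CKI, 4330 to 4380 CPM with Kushen and 7800 to 8040 CPM with Baituling. With CKI 5 were called lower than with Baituling, VIM (log2 fold change -2.56), CAV1 (-1.4), KRT18 (-1.31), KRT8 (-1.28) and S100A4 (-1.02). With Kushen 4 were, VIM (-1.83), CAV1 (-1.47), KRT8 (-1.07) and KRT18 (-1.05). Of all genes 7.91% and 6.73% were called lower in these comparisons. All 8 passed the adjusted p as lower in both, against 37% and 36.1% of all genes, and none was called in CKI against Kushen. ESR1 and PGR, which encode the estrogen and progesterone receptors, had at most 4 counts in any library. With EPCAM, CDH1 and KRT5 they formed a list of 5 markers that the line is held not to use, which summed to 8.26 to 8.85 CPM with CKI, 7.67 to 8.41 CPM with Kushen and 14.9 to 22.9 CPM with Baituling. EPCAM, an epithelial adhesion gene, made up most of this with 162 to 280 counts, and CDH1, which encodes E-cadherin, was called lower with CKI (log2 fold change -1.34) and with Kushen (-1.75) than with Baituling. The 9 leukocyte and endothelial markers in the table summed to 8.36 to 10.1 CPM with CKI, 5.51 to 7.63 CPM with Kushen and 9.66 to 11.5 CPM with Baituling. CD14, a monocyte marker, made up most of this sum with means of 7.72, 5.94 and 10.1 CPM with CKI, Kushen and Baituling, which differed by the adjusted p in all 3 comparisons. VWF, an endothelial gene with 2 to 26 counts, was higher with CKI (2.83) and with Kushen (1.85) than with Baituling. It had 2 to 3 counts with Baituling and reached 10 counts in every library of CKI and Kushen alone, so these values are a description. MPO, a marker of neutrophils and their precursors, had no count, and PTPRC, which encodes the pan-leukocyte protein CD45, had 0 to 9 counts. The keratin gene KRT5 had 93 and 124 counts in Baituling replicates 2 and 3 and none in the other 7 libraries. The part of these marker levels in the chemokine results was not tested, and in bulk RNA fewer cells of a type and less RNA per cell cannot be told apart.

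CXCL8, CXCL1, CXCL5, CXCL3 and CXCL2 lie, in this order, within 358.7 kb of chromosome 4 (GRCh37, chr4:74606236-74964913), and each has 4 exons. The 120 bases before the RefSeq transcription start, taken from the RefSeq promoter table (assembly GRCh38.p14) and placed on GRCh37 by their only exact match, are shown because these 5 genes share a feature there. The RefSeq starts can differ from the ends of the GENCODE gene intervals given here, so that the window of CCL20, nearly all of that of CXCL3 and part of that of CXCL8 lie inside those intervals. The capitals mark GGAATTTCC, a sequence of the NF-kB type, and every sequence reads 5′ to 3′ toward the gene.
CXCL8, chr4:74606166-74606285, plus strand: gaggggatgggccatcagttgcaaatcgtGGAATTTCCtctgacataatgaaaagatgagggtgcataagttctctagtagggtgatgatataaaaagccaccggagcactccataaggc
CXCL1, chr4:74734990-74735109, plus strand: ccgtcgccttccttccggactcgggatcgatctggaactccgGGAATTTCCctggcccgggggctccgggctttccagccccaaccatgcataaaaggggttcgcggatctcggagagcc
CXCL2, chr4:74964913-74965032, minus strand: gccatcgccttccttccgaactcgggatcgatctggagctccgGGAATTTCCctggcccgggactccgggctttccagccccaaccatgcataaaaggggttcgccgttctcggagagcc
CXCL3, chr4:74904407-74904526, minus strand: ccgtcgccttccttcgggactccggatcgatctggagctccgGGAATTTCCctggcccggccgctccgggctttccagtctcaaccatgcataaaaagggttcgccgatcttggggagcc
CXCL5, chr4:74864395-74864514, minus strand: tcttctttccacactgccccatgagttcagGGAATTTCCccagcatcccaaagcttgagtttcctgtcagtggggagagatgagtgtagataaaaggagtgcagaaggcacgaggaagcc

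The motif began 91 bases before the start in CXCL8, 90 in CXCL5, 78 in CXCL1 and CXCL3 and 77 in CXCL2. Searched on both strands of the 250 bases before the start, GGAATTTCC was found in 117 of 27305 RefSeq promoters, or 0.428%. CCL20 (chr2:228670455-228682280) did not hold these letters before its RefSeq start, and promoters of CXCL16, CCL2 and CCL5 were not analysed here. An AP-1 type sequence, TGANTCA, was found in CXCL8 alone among the 6 promoters searched, 137 bases before the start, and in 6.6% of all promoters. A broader consensus pattern of the kB type, matches of which can overlap GGAATTTCC, was found in all 6 and in 53.7% of all promoters. TTGCNNAA, a C/EBP-type pattern, was found in CXCL2 of these 6 and in 9.13% of all promoters, and TGACNNNGC, an NRF2-type pattern, in none of the 6 and in 11.0% of all. A match of letters is a description of the sequence and not evidence of binding. Sequences that differ from a pattern by a letter were not counted, so the lack of a match does not show that a site is absent. CXCL1, CXCL2 and CXCL3 are close copies: over the 120 bases shown CXCL1 was 95% identical to CXCL2 and 90.8% identical to CXCL3.

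The mRNAs share a further feature. In the 3′ untranslated region the AU-rich core TATTTAT occurred 8 times in CXCL2, 4 times in CXCL1 and in CXCL8 and 3 times in CXCL3 and in CXCL5. It occurred once in CCL20 and not in CXCL16, CCL2 or CCL5. Of 18355 coding genes with a 3′ untranslated region of at least 100 bases, 14.1% held 2 or more copies, a share that is not adjusted for length.

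CXCL8 (ENSG00000169429, chr4:74606236-74609433) was the most abundant of the chemokine transcripts. Its level was 51.6, 51.5 and 62.4 CPM in the CKI libraries, 26.8, 23.0 and 25.4 CPM in the Kushen libraries and 123, 137 and 142 CPM in the Baituling libraries. The 3 treatments did not overlap, with Kushen lowest, CKI between and Baituling highest. The level was 2.20-fold higher with CKI than with Kushen (log2 fold change 1.14 ± 0.08, SE, adjusted p = 2.57e-09, edgeR quasi-likelihood test). With CKI it was lower than with Baituling, at -1.28 ± 0.07 on the log2 scale (adjusted p = 3.09e-12), and lower with Kushen than with Baituling by -2.42 ± 0.08 (adjusted p = 1.28e-15). A gene was called different here if it had an adjusted p below 0.05 together with a change of more than 1 on the log2 scale in either direction, and CXCL8 was called in all 3 comparisons. With library totals in place of TMM, a scaling that moved the median of all genes by 0.29, the value for CKI against Baituling was -0.99 and CXCL8 was not called there.

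CXCL1 (ENSG00000163739, chr4:74735110-74737025), a neutrophil attractant first described as a melanoma growth factor, was high only with Baituling among the 3 injections. Its level was 4.63, 4.67 and 5.13 CPM with CKI, 4.30, 3.49 and 5.59 CPM with Kushen and 33.6, 33.4 and 35.3 CPM with Baituling. The CKI libraries lay inside the range of the Kushen libraries, and the Baituling libraries stood apart from both. The log2 fold change of CKI against Kushen was 0.12 ± 0.14 (adjusted p = 0.526, 95% interval -0.17 to 0.40), and without Kushen replicate 2, the lowest library, it was -0.03 (adjusted p = 0.864). CKI was lower than Baituling by -2.82 ± 0.11 (adjusted p = 7.61e-15) and Kushen by -2.94 ± 0.11 (adjusted p = 9.04e-15).

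CXCL2 (ENSG00000081041, chr4:74962757-74964913), its closest copy and likewise a neutrophil attractant, was also highest with Baituling. Its level was 7.81, 7.74 and 9.68 CPM with CKI, 5.47, 3.53 and 7.5 CPM with Kushen and 38.3, 43.3 and 45.9 CPM with Baituling. The highest Kushen library lay just under the lowest CKI library, and all Baituling libraries were far above. CKI exceeded Kushen by 0.62 ± 0.17 on the log2 scale (SE, adjusted p = 0.007), which passed the adjusted p but not the fold threshold. Without Kushen replicate 2 the value was 0.38 (adjusted p = 0.0468), and with DESeq2 it was 0.60 (adjusted p = 0.0693). CKI was lower than Baituling by -2.34 ± 0.13 (adjusted p = 5.45e-12) and Kushen by -2.96 ± 0.14 (adjusted p = 7.18e-13).

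CXCL3 (ENSG00000163734, chr4:74902306-74904524), the third of these copies, was measured at lower levels. It was at 2.98, 3.47 and 3.55 CPM with CKI, 1.85, 1.07 and 1.77 CPM with Kushen and 6.10, 5.92 and 5.74 CPM with Baituling. The treatments did not overlap and stood in the order of CXCL8. CKI was above Kushen by 1.09 ± 0.19 on the log2 scale (SE, adjusted p = 0.000131) and below Baituling by -0.83 ± 0.15 (adjusted p = 7.66e-05), the latter within the fold threshold. Kushen was below Baituling by -1.92 ± 0.18 (adjusted p = 9.06e-09). Without Kushen replicate 2, the log2 fold change of CKI against Kushen was 0.87 and CXCL3 was not called there.

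The transcripts of CXCL1 and CXCL2 were 90.9% identical over 1094 aligned bases, with a longest identical stretch of 77 bases, and those of CXCL2 and CXCL3 were 83.6% identical over 1010 bases, with a stretch of 97 bases. How the counting treated reads that fit more than a single gene is not given in the sources used here, so the split of counts among these 3 genes is uncertain.

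CXCL5 (ENSG00000163735, chr4:74861359-74864394), another ligand of CXCR2, had 1 count in CKI replicate 3, 1 in Kushen replicate 2 and none elsewhere. A count of 0 allows up to 3 counts in a library, so its level was not detectable at this depth. Its promoter carries the same 9 letters as those of its neighbours shown above. Of the other chemokine genes in the interval, CXCL6, PF4V1 and PPBP had no count in any library, and PF4 had 4 to 12 counts. Of the genes flanking the cluster 5 were tested. None was called by edgeR in any comparison, while 2, 4 and 2 of them passed the adjusted p in CKI against Kushen, CKI against Baituling and Kushen against Baituling, as did 39.8%, 76.1% and 71.6% of all genes. Among them AREG, which encodes the growth factor amphiregulin, had a mean of 39.5 CPM with CKI, 38.4 CPM with Kushen and 27.1 CPM with Baituling. EREG, another of them, stood in the order of CXCL8, with means of 14.1, 10.3 and 17.6 CPM in the same order of treatments. Its log2 fold changes were 0.45 for CKI against Kushen, -0.32 for CKI against Baituling and -0.77 for Kushen against Baituling, and each passed the adjusted p.

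**Figure D1:**
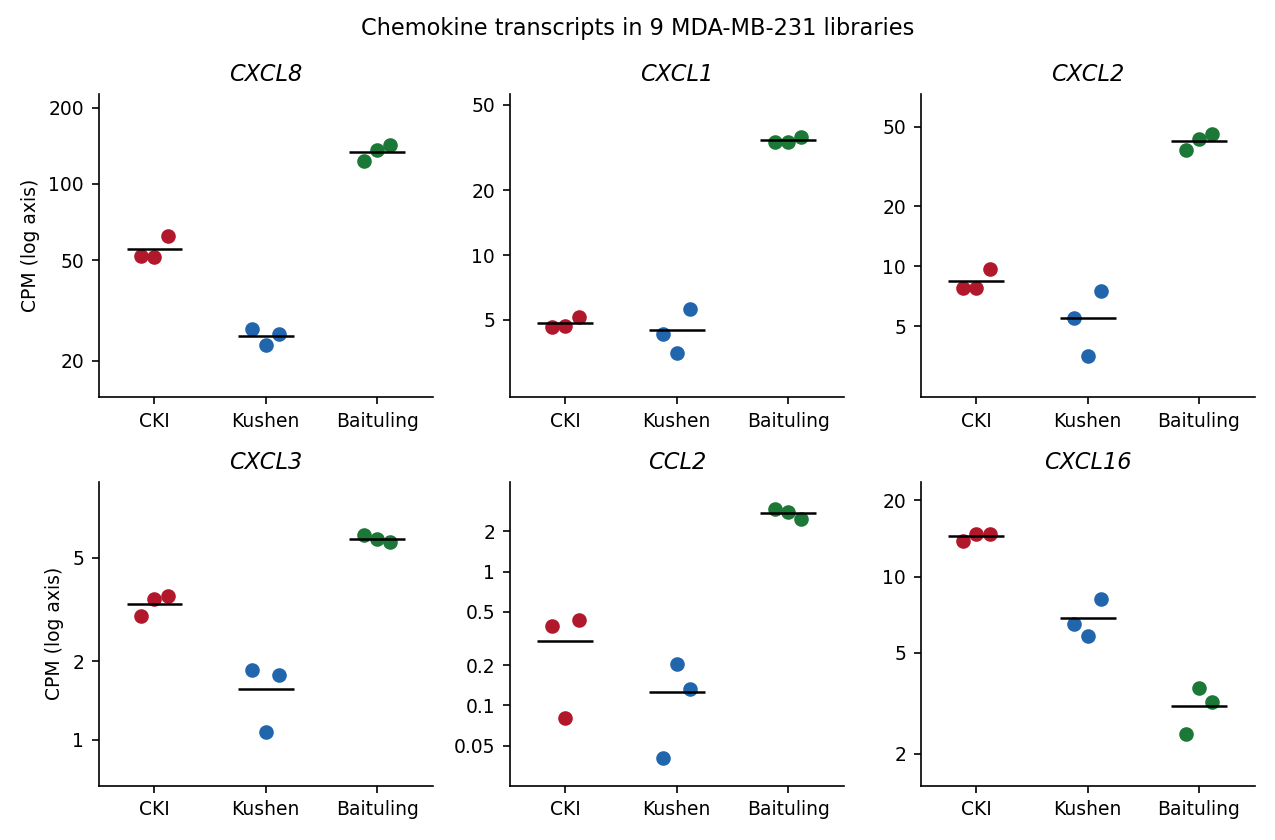
Level of 6 chemokine transcripts in CPM (vertical log axes, a range of its own in each panel) in the 3 libraries of each injection; points are libraries and bars are group means. CXCL8, CXCL1, CXCL2, CXCL3 and CCL2 are highest with Baituling, whereas CXCL16 is highest with CKI at a mean of 14.5 CPM.

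CXCL16 (ENSG00000161921, chr17:4636828-4643223, minus strand, 6 exons) stood in another order. Its level was 13.9, 14.7 and 14.8 CPM with CKI, 6.52, 5.83 and 8.16 CPM with Kushen and 2.39, 3.62 and 3.20 CPM with Baituling. The treatments did not overlap, with CKI above both injections of a single herb. The log2 fold change was 1.09 ± 0.12 for CKI against Kushen (adjusted p = 7.09e-07), 2.24 ± 0.14 for CKI against Baituling (adjusted p = 1.84e-11) and 1.16 ± 0.16 for Kushen against Baituling (adjusted p = 1.58e-06). CXCL16 was called in all 3 comparisons, and without Kushen replicate 2 its log2 fold change of CKI against Kushen was 0.98 and it was not called. The libraries carry no strand, and exons of MED11 and ZMYND15 on the opposite strand share 75 and 96 of its 2324 transcript bases. MED11 had 421 to 465 counts with CKI, 443 to 495 with Kushen and 199 to 234 with Baituling, and ZMYND15 had 0 to 10 counts. Their part in the CXCL16 counts was not tested.

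CCL2 (ENSG00000108691, chr17:32582293-32584227, 3 exons) was near the limit of detection except with Baituling. It had 10, 2 and 11 counts with CKI, 1, 5 and 3 counts with Kushen and 60, 51 and 45 counts with Baituling, or means of 0.302 ± 0.193, 0.126 ± 0.0827 and 2.74 ± 0.228 CPM (SD, n = 3). The gene passed the filter on low counts through the Baituling libraries alone, so only a gene that differed could have passed in this way. Its levels against Baituling are therefore a description, with no test, and CCL2 is left out of the counts of called genes in the next paragraph. CKI and Kushen overlapped, with a log2 fold change of 1.24 ± 0.62 (adjusted p = 0.122), which without CKI replicate 2 was 1.68 (adjusted p = 0.0278). CCL20 (ENSG00000115009) had 2, 0 and 3 counts with CKI, 4, 0 and 1 with Kushen and 3, 5 and 5 with Baituling and did not pass the filter. At these counts no difference in CCL20 could be resolved, and no fold is given.

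Of the 5 genes tested other than CCL2, 3 were called higher with CKI than with Kushen (CXCL8, CXCL3 and CXCL16) and none lower, where 1.9% of the 14195 genes tested were called, 1.7% higher and 0.197% lower. In CKI against Baituling 1 was called higher (CXCL16) and 3 lower (CXCL8, CXCL1 and CXCL2), where 19.1% of all genes were called, 11.2% higher and 7.91% lower. In Kushen against Baituling 1 was called higher (CXCL16) and 4 lower, where 15.2% of all genes were called, 8.5% higher and 6.73% lower. The libraries of the compared treatments did not overlap for 4 of these 5 genes in CKI against Kushen, where this held for 49.5% of all genes, and for 5 in each of the other comparisons, where it held for 78.3% and 73.1%. By the adjusted p alone, 4 of the 5 passed in CKI against Kushen, where 39.8% of all genes passed, 5 passed in CKI against Baituling, where 76.1% did, and 5 passed in Kushen against Baituling, where 71.6% did. The remaining 3 of the 9 genes, CXCL5, CCL20 and CCL5, gave no test. Without Kushen replicate 2 only CXCL8 was called in CKI against Kushen, and in a stricter test against a log2 fold change of 1 (edgeR) none was called there, 1 at an unadjusted p under 0.05.

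**Figure D2:**
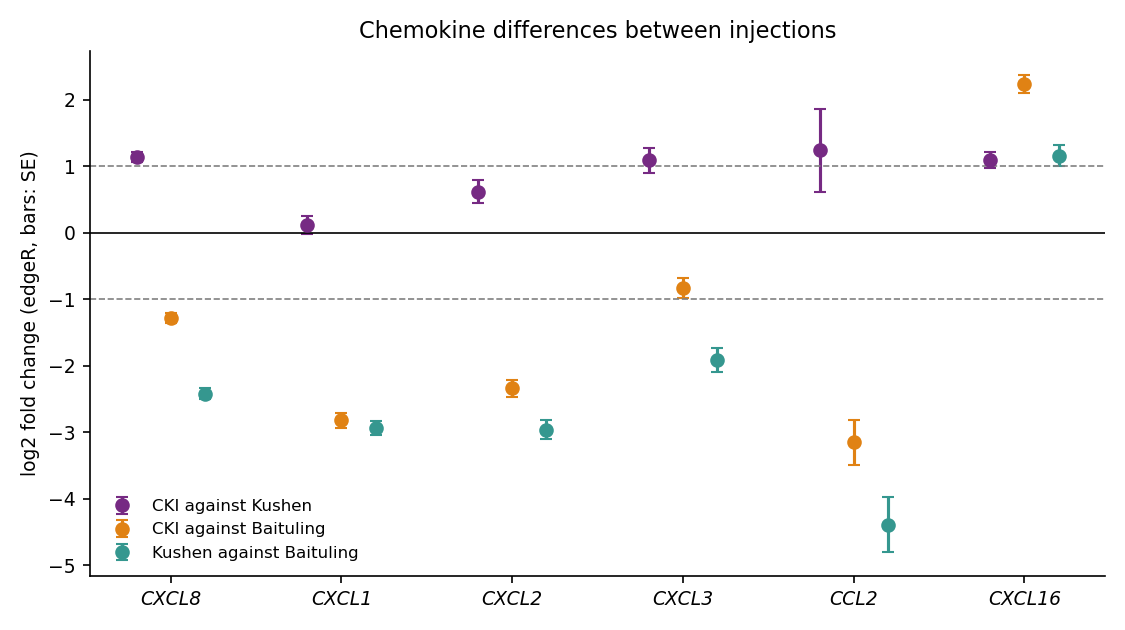
Log2 fold change (vertical axis) of each tested chemokine gene in the 3 comparisons between injections; points are edgeR estimates, error bars are SE and dashed lines mark the threshold of 1. CXCL16 is the gene above 0 in all 3, with 2.24 in CKI against Baituling, and CCL2, drawn as a description since it passed the filter through Baituling alone, has the widest errors.

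The place of CKI between the injections of a single herb differed from gene to gene. On the log2 scale, CKI stood at 4% of the distance from Kushen to Baituling for CXCL1, at 21% for CXCL2, at 47% for CXCL8 and at 57% for CXCL3. CXCL1 with CKI was thus close to its level with Kushen, whereas CXCL8 and CXCL3 were near the middle. These positions describe comparisons that share libraries.

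Ratios of counts within a library, which need no scaling, restate these differences between genes from the same counts. The log2 ratio of CXCL8 to CXCL1 was 3.48, 3.46 and 3.60 with CKI, 2.64, 2.72 and 2.19 with Kushen and 1.87, 2.03 and 2.01 with Baituling. CXCL8 thus had 11.0 to 12.1 counts for each count of CXCL1 with CKI, 4.55 to 6.59 with Kushen and 3.65 to 4.08 with Baituling, with no overlap between treatments. The log2 ratio of CXCL3 to CXCL1 was -0.63, -0.43 and -0.53 with CKI, -1.22, -1.71 and -1.66 with Kushen and -2.46, -2.50 and -2.62 with Baituling. Both ratios differed among treatments in an exact permutation test over 1680 arrangements of the libraries (p = 0.00357, the smallest it can give, adjusted p = 0.00714 over the 6 pairs of CXCL1, CXCL2, CXCL3 and CXCL8). The ratio of CXCL2 to CXCL1 was highest with CKI (mean log2 0.80 ± 0.10, SD, n = 3) and was 0.26 ± 0.22 with Kushen and 0.31 ± 0.11 with Baituling (exact permutation p = 0.0286, adjusted p = 0.0343). For CXCL8 to CXCL3 the test did not pass (exact permutation p = 0.104), with mean log2 ratios of 4.05 ± 0.13, 4.04 ± 0.34 and 4.50 ± 0.15 (SD, n = 3) for CKI, Kushen and Baituling. The ratios of CXCL8 to CXCL2 and of CXCL3 to CXCL2 had an adjusted p of 0.0107 and 0.00714 by the same exact test. The ratio tests were chosen after the levels had been seen, and all of them rest on the uncertain split of counts among CXCL1, CXCL2 and CXCL3.

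**Figure D3:**
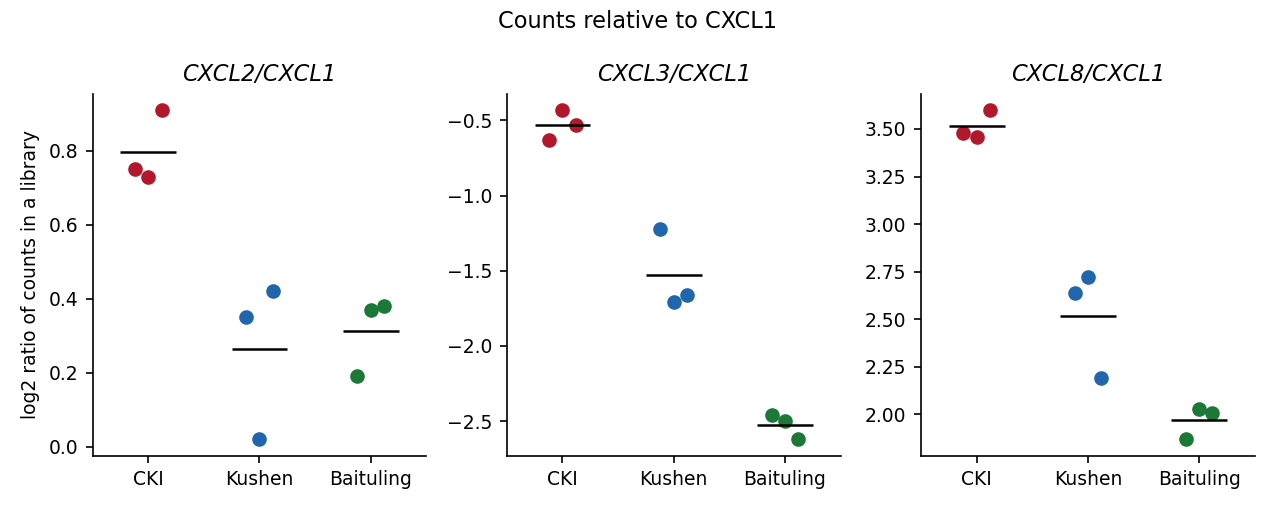
Log2 ratio of the counts of CXCL2, CXCL3 and CXCL8 to those of CXCL1 in the same library (vertical axes) for the 3 injections; points are libraries and bars are group means. The CKI libraries are highest in each panel, and for CXCL8 they lie between 3.46 and 3.60.

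Levels of different genes were compared per kilobase of the annotated transcript. With Baituling the order was CXCL8 at 81.5 ± 6.02, CXCL2 at 38.1 ± 3.43, CXCL1 at 29.1 ± 0.861, CXCL3 at 5.51 ± 0.166, CCL2 at 3.69 ± 0.307 and CXCL16 at 1.32 ± 0.269 CPM per kb (SD, n = 3), and no neighbours in it overlapped. With CKI the order was CXCL8 at 33.6 ± 3.82, CXCL2 at 7.54 ± 0.989, CXCL16 at 6.23 ± 0.217, CXCL1 at 4.10 ± 0.239, CXCL3 at 3.10 ± 0.287 and CCL2 at 0.408 ± 0.261 CPM per kb, again without overlap of neighbours. With Kushen CXCL8 was at 15.3 ± 1.16 CPM per kb, and CXCL2 (3.17 to 6.72), CXCL1 (2.97 to 4.76) and CXCL16 (2.51 to 3.51) overlapped between libraries. Within each Kushen library the order was CXCL2, CXCL1 and CXCL16. In Kushen replicate 2 CXCL2 and CXCL1 were close, with 86 and 85 counts. CXCL16 was thus above CXCL1 with CKI and the last of the tested transcripts with Baituling.

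Summed over the 8 genes in the table, the level was 55.0 ± 5.56 CPM per kb with CKI, 28.6 ± 4.30 with Kushen and 159 ± 9.90 with Baituling (SD, n = 3). CXCL8 made up 61.0 ± 0.764% of this sum with CKI, 53.8 ± 5.43% with Kushen and 51.1 ± 0.649% with Baituling. The share of CXCL1 was 7.47%, 13.2% and 18.3% in the same order, and that of CXCL16 was 11.4%, 10.3% and 0.825%. CXCL2 made up 13.7%, 16.9% and 23.9% and CXCL3 5.65%, 5.02% and 3.47% in that order. The neutrophil attractants were therefore most of the sum with every injection and almost all of it with Baituling.

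**Figure D4:**
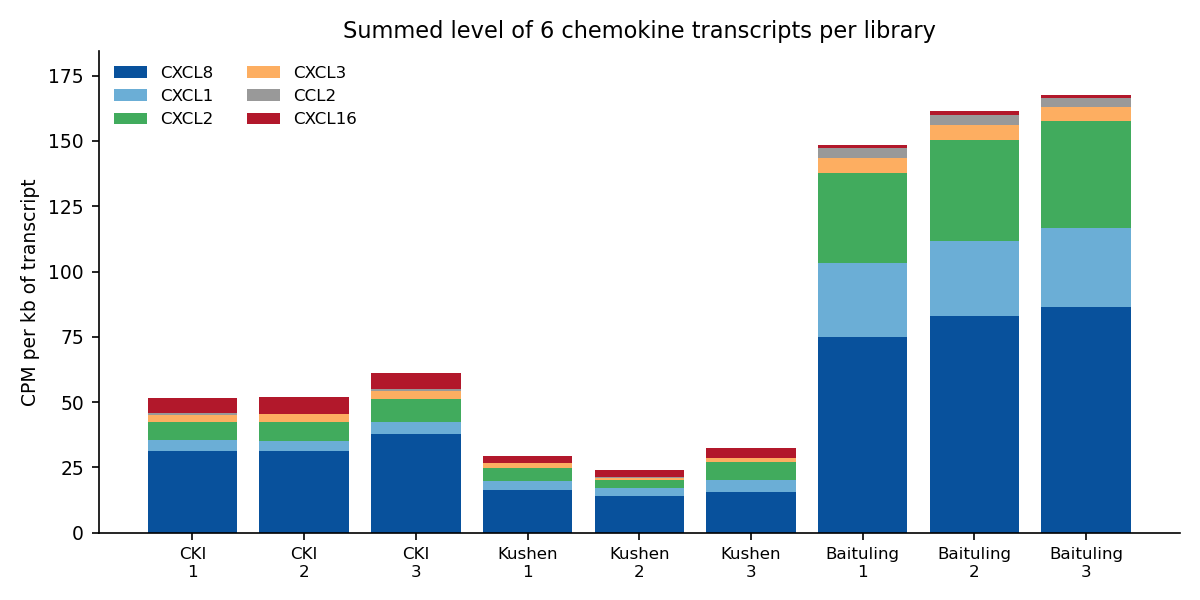
Summed level of 6 chemokine transcripts in CPM per kb of transcript (vertical axis, from 0) in each of the 9 libraries; colours are genes. The sum is largest in the 3 Baituling libraries, CXCL8 is the largest part in every library, and CXCL16 is a thin band with Baituling at 0.825% of the sum.

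The remaining chemokine ligands were mostly below the filter on low counts. Of 39 written down, 28 were in the table and 5 passed it. CCL26, an attractant of eosinophils, stood in the order of CXCL16, with means of 3.4 CPM with CKI, 1.27 CPM with Kushen and 0.501 CPM with Baituling, and was called in all 3 comparisons. With 6 to 12 counts with Baituling, it reached 10 counts in every library of CKI and Kushen alone, so its calls against Baituling are a description. CX3CL1, a membrane-bound chemokine like CXCL16, had 4.66, 5.33 and 14.5 CPM in the same order of treatments and was lower with CKI and with Kushen than with Baituling (log2 fold changes -1.64 and -1.44). CXCL11, a ligand of CXCR3, had 4 to 10 counts with CKI, 2 to 4 with Kushen and 11 to 26 with Baituling and passed the filter through Baituling alone, so no test of it is given. CCL28, a mucosal chemokine, was called lower with Kushen than with Baituling (-1.32). CXCL14 had 11 to 21 counts with CKI, 14 to 26 with Kushen and 2 to 9 with Baituling, all its means being under 1 CPM. It reached 10 counts in every library of CKI and Kushen alone. Its log2 fold changes against Baituling, 1.36 for CKI and 1.83 for Kushen, are therefore a description, and the levels with CKI and Baituling overlapped.

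The receptors CXCR1, CXCR2, CXCR6, CCR2 and CCR6 had few counts or none. CXCR2 had no count in any library and CXCR1 had 1 count in each of 2 CKI libraries. CXCR6, the receptor of CXCL16, had 12, 16 and 6 counts with CKI, 2, 2 and 5 with Kushen and 3, 1 and 2 with Baituling, below the filter. CCR2, the receptor of CCL2, had 14, 9 and 10 counts with CKI, 7 in each Kushen library and 2, 0 and 0 with Baituling, and CCR6 had none. Of the 23 receptors listed 7 were tested. None was called by edgeR in CKI against Kushen, where 2 passed the adjusted p as higher and 1 as lower, against 19.6% and 20.2% of all genes. CCR1 was lower with CKI (log2 fold change -2.41) and with Kushen (-2.39) than with Baituling, CXCR4, the receptor of CXCL12, was lower with CKI than with Baituling (-1.05), and CCR7, which guides cells to lymph nodes, was higher with CKI (2.59) and with Kushen (1.90). CCR3 was higher with Kushen than with Baituling (1.04). With Baituling CCR3 had 8 to 12 counts and CCR7 had 7 to 10. Both reached 10 counts in every library of CKI and Kushen alone, so their values against Baituling are a description.

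Cytokines that induce chemokines, and their receptors, were described by a list of 17 genes, of which 13 were tested. In CKI against Kushen IL1A (1.93 ± 0.11, SE, log2 fold change), IL1B (1.08 ± 0.07) and IL6R (2.25 ± 0.25) were called higher and none lower. Of all genes 1.7% were called higher and 0.197% lower there. The IL-1 receptor antagonist IL1RN was also higher (1.97 ± 0.36). IL1RN, with 33 to 48 counts with CKI and 2 to 12 otherwise, reached 10 counts in every library of CKI alone, and LTB, with 14 to 18 counts with Baituling and 2 to 7 otherwise, did so with Baituling alone, so their calls against the other treatments are a description. So are the calls of IL6R against Baituling, where it had 6 to 7 counts, since it reached 10 in every library of CKI and Kushen alone. In CKI against Baituling the TNF receptor gene TNFRSF1B was called higher and IL6 (-2.17 ± 0.07) lower, where 11.2% of all genes were called higher and 7.91% lower. As a description, IL6R and IL1RN were higher there and LTB lower. In Kushen against Baituling IL6 (-2.72 ± 0.07), IL1B (-1.64 ± 0.07) and IL1A (-1.01 ± 0.12) were called lower and TNFRSF1B higher. Of all genes 6.73% were called lower and 8.5% higher in this comparison. As a description, LTB was lower there and IL6R higher. The mean level of IL1B was 26.0 CPM with CKI, 12.3 CPM with Kushen and 38.3 CPM with Baituling, the same order as CXCL8. IL1A differed from that order, being highest with CKI at 18.3 CPM against 4.77 CPM with Kushen and 9.65 CPM with Baituling. TNF had 0 to 4 counts and IL17A none.

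The NF-kB subunits, kinases and inhibitors were 17 tested genes. In CKI against Kushen 1 was called, TRAF1 (1.07 ± 0.08), an adaptor of TNF receptors, while 14 passed the adjusted p as higher and 0 as lower, where 19.6% of all genes passed as higher and 20.2% as lower. In CKI against Baituling NFKBIZ was called lower (-1.22 ± 0.08), and 10 genes passed as higher and 6 as lower, against 39.1% and 37% of all genes. In Kushen against Baituling NFKBIZ (-1.88 ± 0.09), TNFAIP3 (-1.09 ± 0.09), NFKB1 (-1.04 ± 0.06) and BCL3 (-1.02 ± 0.07) were called lower, and 3 genes passed as higher and 13 as lower, against 35.6% and 36.1% of all genes. The shares of all genes called were 1.9%, 19.1% and 15.2% in the same order of comparisons. Called lower were 7.91% of all genes with CKI and 6.73% with Kushen, each relative to Baituling. NFKBIZ encodes a nuclear cofactor of NF-kB, TNFAIP3 an enzyme that restrains it, NFKB1 its p50 subunit and BCL3 a p50-binding cofactor. NFKBIZ had means of 21.8 CPM with CKI, 13.8 CPM with Kushen and 50.7 CPM with Baituling.

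Of 12 factors that bind unstable cytokine mRNAs, all tested, 1 was called between CKI and Kushen, 3 between CKI and Baituling and 2 between Kushen and Baituling, where 1.9%, 19.1% and 15.2% of all genes were called. ZFP36, which encodes the decay factor tristetraprolin, was higher with CKI than with either injection of a single herb, with the same log2 fold change of 1.31 ± 0.11, and the difference between Kushen and Baituling was -0.01 ± 0.12 (adjusted p = 0.962, 95% interval -0.26 to 0.24). ZC3H12A, which encodes the RNase regnase-1, was lower than with Baituling by -1.66 ± 0.06 with CKI and by -1.91 ± 0.06 with Kushen. HNRNPD, which encodes AUF1, was likewise lower with CKI (-1.32 ± 0.04) and was called at the threshold with Kushen (-1.0 ± 0.04).

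Enzymes that cut chemokines were represented by 9 tested genes of 11. DPP4, which trims the amino terminus of many chemokines, had means of 22.9 CPM with CKI, 15.3 CPM with Kushen and 2.53 CPM with Baituling and was called higher with CKI (3.18 ± 0.11) and with Kushen (2.61 ± 0.12) than with Baituling. MMP1 was higher with CKI than with Kushen and than with Baituling, by 1.33 ± 0.04 in each case. MMP14 was lower with CKI (-1.12 ± 0.05) and with Kushen (-1.04 ± 0.05) than with Baituling. The gene of ADAM10, which sheds CXCL16, was not called but passed the adjusted p in all 3 comparisons. Its log2 fold changes were -0.21 for CKI against Kushen, -0.37 for CKI against Baituling and -0.16 for Kushen against Baituling. Each was opposite in sign to that of CXCL16. ADAM17, of the same list and also not called, had 0.02, 0.78 and 0.76 in these comparisons, with the sign of CXCL16. The first of these values did not pass the adjusted p, and the others did.

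**Figure D5:**
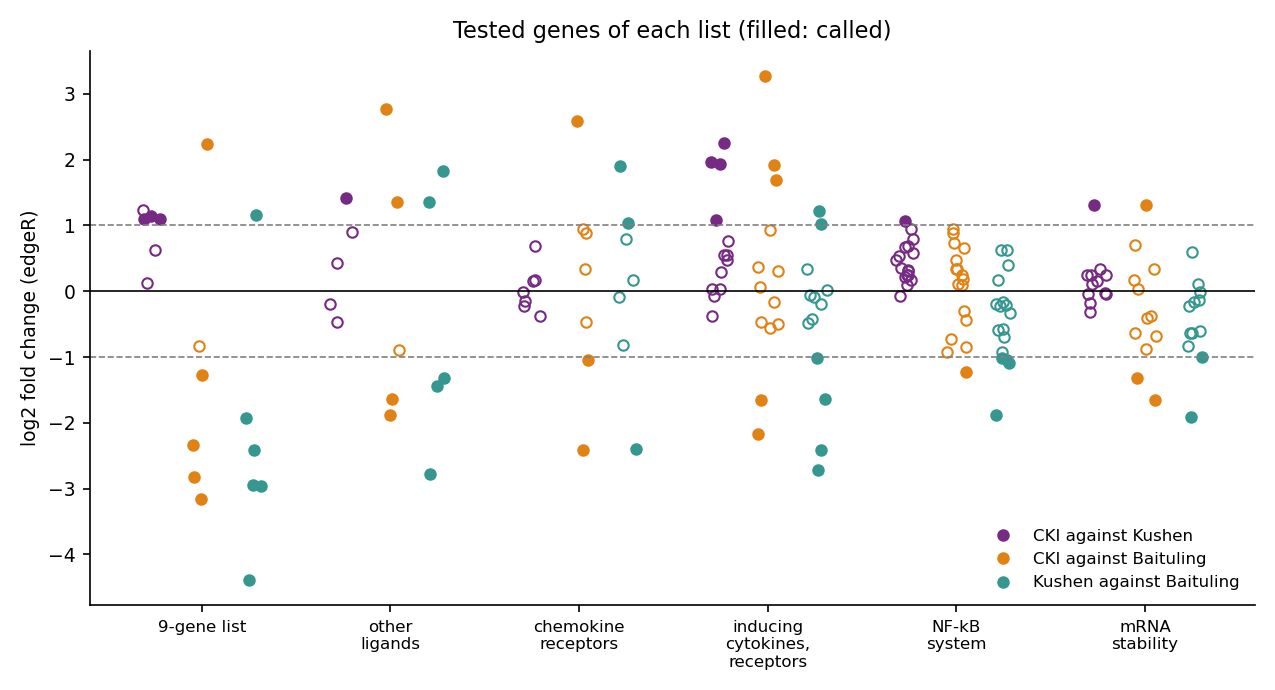
Log2 fold change (vertical axis, edgeR) of every tested gene of the chemokine list and of 5 lists around it, in the 3 comparisons; filled points were called, open points were not, and dashed lines mark the threshold of 1. In the chemokine list the points of Kushen against Baituling lie below -1 except CXCL16 at 1.16, CCL2 is drawn as a description, and most genes of the NF-kB system lie within the threshold.

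The genes whose pattern over the 9 libraries was nearest to that of CXCL8, by Euclidean distance of centred log2 CPM among 11965 genes, were SGK1 (0.343), RNASE1 (0.686), NFKBIZ (0.796), KRTAP2-3 (0.854) and SAA1 (0.861). SGK1, a serum- and glucocorticoid-induced kinase gene, had log2 fold changes of 1.09, -1.40 and -2.49 in CKI against Kushen, CKI against Baituling and Kushen against Baituling. Nearest to CXCL16 were AHRR (0.431), KDM7A-DT (0.494), PCDH1 (0.544), H2AC6 (0.626) and HKDC1 (0.658). AHRR, which encodes the repressor of the aryl hydrocarbon receptor, had log2 fold changes of 0.87, 2.12 and 1.25 in the same order of comparisons. The distances are descriptions over libraries that fall into 3 treatments.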

How the data were processed

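RNA of MDA-MB-231 cells was sequenced as unstranded paired-end libraries, 3 per injection. The authors trimmed reads with Trim Galore 0.3.7, aligned them with STAR 2.5.3a to hg19 (the submitters' processing notes) and deposited raw counts per gene; the counting tool and annotation are not given in the sources used here. Of 24566 rows, 222 repeated an Ensembl gene with identical counts and were used a single time. Positions came from GENCODE on GRCh37. Columns were matched to libraries by treatment initial and replicate number.

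Genes were filtered with filterByExpr (minimum count 10, minimum total 15; 14195 kept, 10149 removed) and tested in edgeR 4.0.16 (R 4.3.3), TMM, quasi-likelihood F test, all 9 libraries in a single fit with treatment as the only term, two-sided, Benjamini-Hochberg over all genes tested. SE is the log2 fold change divided by the square root of F. The fit was tested on simulated data. Alternatives included DESeq2 1.42.0, other scalings and filters, and leaving out each library. With 3 libraries in each of 2 groups, an exact permutation p is at least 0.1. Limits from a count of 0 cover counting error only. No pair of replicates agreed within sampling noise (chi-square per gene 1.70 to 6.85).

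The 9 genes, the gene lists and the motifs were chosen with earlier results of these data known. Named from the lists were genes called in any comparison, and as nearest patterns the 5 closest genes to CXCL8 and to CXCL16 among genes whose log2 CPM averaged 1 or more. ADAM10, AREG and undetected genes were named for their role, and ADAM17 and EREG were set beside them. All of these were chosen after their values were seen.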

Additional observations from a re-analysis of the deposited data

How the results depend on the processing

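Over all alternatives, 58 of 60 counts of called chemokine genes stayed within 1.5 times the main count, as did the direction and call of 315 of 320 values of single genes. In CKI against Kushen the count of 3 became 0 in the edgeR test against a log2 fold change of 1 (1 gene at an unadjusted p under 0.05), since that test asks for more than the threshold; the ordinary DESeq2 test, not run against that fold, called 3. When each library was left out, that count ranged from 1 to 4, with 1 (CXCL8) without Kushen replicate 2, where CXCL16 was 0.98 and CXCL3 0.87, and the log2 fold change of CXCL1 turned from 0.12 to -0.03 (-0.03 to 0.29 over the libraries left out). CCL2 was called there without CKI replicate 2 (1.68). With library totals CXCL8 in CKI against Baituling was -0.99. Unlike those in the Results, all counts in this section include CCL2 unless stated, and its calls against Baituling are a description. The counts in CKI against Baituling and Kushen against Baituling stayed at 5 and 6 whichever library was left out. CCL2 was among them each time, which is no sign of stability since the filter admitted it through Baituling alone. With at least 10 counts demanded in every library, CCL2 was not tested and 3, 4 and 5 genes were called in the 3 comparisons. CXCL2 in CKI against Kushen ranged from 0.38 to 0.89 (adjusted p 6.5e-07 to 0.0693). With the replicate number as a block the counts were 3, 5 and 6 as before. Libraries of the same number had correlations of deviations of -0.075 to 0.123, and those of different number -0.148 to 0.181. These values gave no sign that the numbers pair the libraries but cannot exclude it, and the labels do not say. Depth limited CXCL5, CCL20 and, except with Baituling, CCL2.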
